A study of Mus musculus with 4 samples.

Results

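The enzymes that oxidise ethanol and acetaldehyde or join acetate to coenzyme A were examined in the livers of ethanol-fed mice. The group held 10 genes chosen by symbol, *Adh1*, *Adh4*, *Adh5*, *Adh7*, *Cyp2e1*, *Cat*, *Aldh2*, *Aldh1a1*, *Aldh1b1* and *Acss2*, of the 22103 entries in the deposited FPKM table (fragments per kilobase of transcript, scaled to the mapped reads of each library). All 10 were found. RNA-seq of whole liver was available for 2 WT mice and 2 Brg1LKO mice, labelled KO. In the Brg1LKO mice the floxed *Smarca4* gene, which encodes the chromatin remodeler Brg1, was deleted in hepatocytes with Cre driven by the albumin (*Alb*) promoter, and the WT mice were littermates. All 4 mice were males, 8 weeks old at the start, and had gone through the NIAAA model: the Lieber–DeCarli liquid diet with ethanol, then 1 ethanol gavage. The labels give 15 days of alcohol. No ethanol-free liver was analysed here, so every level below is a level in the ethanol-fed liver. The question asked of these genes was how much transcript each route held and whether it differed between Brg1LKO and WT livers.

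Ethanol is oxidised to acetaldehyde along several routes in hepatocytes. Cytosolic alcohol dehydrogenases carry most of this step and reduce NAD+ to NADH, the microsomal cytochrome P450 CYP2E1 uses NADPH and oxygen, and peroxisomal catalase can oxidise ethanol with hydrogen peroxide. Acetaldehyde, the reactive intermediate, is oxidised to acetate mainly by ALDH2 in mitochondria, with smaller parts for ALDH1A1 in the cytosol and ALDH1B1 in mitochondria, and acyl-CoA synthetases such as ACSS2 join acetate to coenzyme A. CYP2E1 is known to be stabilised by ethanol as a protein, which transcript levels do not measure.

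*Smarca4* was 1.78 and 1.95 FPKM in the WT livers and 0.608 and 0.579 FPKM in the Brg1LKO livers, so the libraries matched their labels. Depth recovered from the steps of low FPKM values was between 72599106 and 80935545 reads a library. All 10 hepatocyte markers were detected in all 4 livers, and the 10 marker genes summed to between 28606 and 35634 FPKM. All 11 macrophage markers had a positive log2 fold change and 6 had an unadjusted limma p under 0.05, beside 2.00% of all entries tested, with an adjusted p of 1 for each. Their summed level was 48.8 and 49.9 FPKM in the WT livers and 63.2 and 139 FPKM in the Brg1LKO livers. Of 5 erythroid markers 1 passed that p, and their sum was 181 FPKM in Brg1LKO replicate 1 against 21.9 to 40.4 FPKM in the other livers. Of the 7 neutrophil markers tested, out of 10, 0 passed. *Ly6g*, *Camp* and *Ngp* were below the filter, with both Brg1LKO values above both WT values at 0.105 FPKM or less. For *Ly6g* that rested on 0.0131 FPKM in WT replicate 1 against 0.0146 FPKM in Brg1LKO replicate 2. How often entries below the filter separate this way was not counted. Of the 7 tested, 5 log2 fold changes were positive and 2 negative. In 1 of the 7 both Brg1LKO values were above both WT values, beside 10.7% of all entries tested. The list had a sum from 120 to 1192 FPKM that was mostly *Lcn2*. In the sinusoidal endothelial, stellate cell, cholangiocyte and periportal hepatocyte lists 0 of the genes tested passed. The part of these cells in the results below was not tested. In bulk liver, fewer cells of a type and less RNA per cell cannot be told apart.

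Levels of different genes were set side by side in FPKM, which is per length. *Cyp2e1* stood highest of the 10, with a mean of 556 FPKM over the 4 livers and rank 78 in the table. Its lowest liver, 455 FPKM, was above the highest liver of every other member. *Adh1*, *Cat* and *Aldh2* followed at means of 275, 272 and 270 FPKM, ranks 118, 120 and 121. The ranges of these 3 genes overlapped, and *Adh1* exceeded *Cat* in only 2 of the 4 livers, as did *Cat* over *Aldh2*, so their order was not separated. *Aldh1a1* at 80.2 FPKM and *Adh5* at 36.9 FPKM came next, each below the gene before it in all 4 livers without overlap. *Adh4* (4.63 FPKM) and *Aldh1b1* (4.41 FPKM) overlapped each other. *Acss2* (0.841 FPKM) and *Adh7* (0.73 FPKM) were lowest and also overlapped. The highest and lowest of the 10 means were 762-fold apart.

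**Figure D1:**
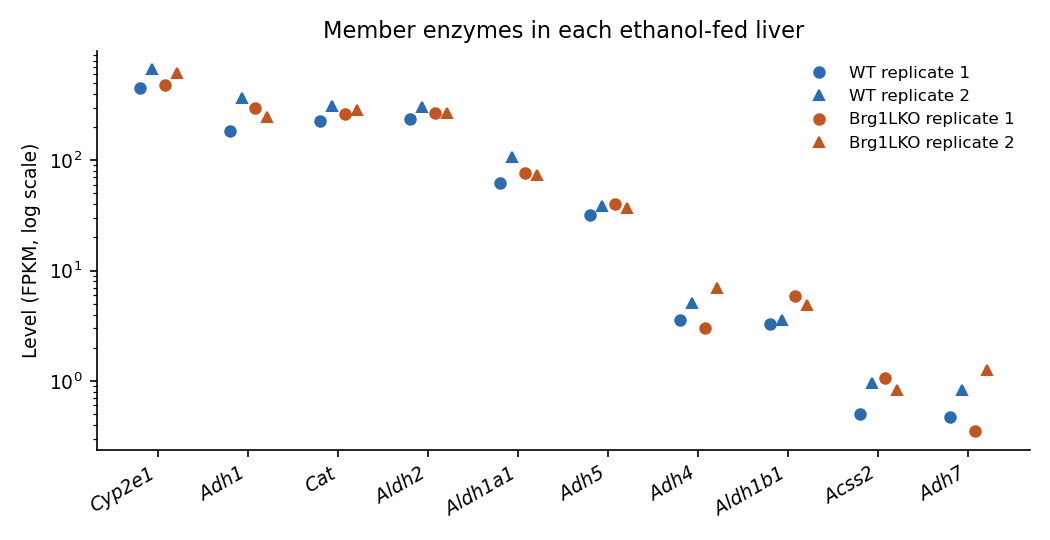
Level of each of the 10 enzymes (FPKM, log scale) in each of the 4 livers, ordered by mean; each point is 1 liver, blue for WT and orange for Brg1LKO. *Cyp2e1* lies above all others between 455 and 673 FPKM, and the WT and Brg1LKO points are apart for *Aldh1b1* alone.

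The summed level of each route was as follows. The 4 cytosolic alcohol dehydrogenases together gave 221 and 414 FPKM in the WT livers and 341 and 293 FPKM in the Brg1LKO livers. *Cyp2e1* alone exceeded that sum in every liver. Taking these dehydrogenases, *Cyp2e1* and *Cat* as the entry step, *Cyp2e1* supplied 44.1% to 51.7% of the transcript, the alcohol dehydrogenases 24.4% to 31.5% and *Cat* 22.1% to 25.0%. These shares are of transcript and say nothing of enzyme activity. The 6 most abundant enzymes rested on at least 4153 estimated reads in each liver.

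The routes did not separate the genotypes. For the alcohol dehydrogenases, the mean sum was 317 ± 137 FPKM (SD, n = 2) in WT and 317 ± 34.0 FPKM (SD, n = 2) in Brg1LKO livers (exact two-sided permutation test, p = 1). The sum of the aldehyde dehydrogenases *Aldh2*, *Aldh1a1* and *Aldh1b1* was 304 and 414 FPKM in WT and 351 and 349 FPKM in Brg1LKO livers, so both Brg1LKO sums lay between the WT sums (exact permutation p = 1). The microsomal and the peroxisomal route, each a single gene, also gave an exact permutation p of 1, and *Acss2* gave 0.667. With 2 livers against 2 the smallest p this test can give is 0.333, so it could not have passed a threshold of 0.05. The ratio of the entry step to the aldehyde dehydrogenases was 2.97 and 3.37 in WT and 3.09 and 3.43 in Brg1LKO livers, and the 2 groups overlapped.

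Across all 12346 entries with a mean of at least 0.1 FPKM, limma was fitted on log2(FPKM + 0.1), and all 10 enzymes passed this filter. An unadjusted p under 0.05 with more than a 2-fold change, the study's threshold, was met by 0.980% of the entries and by 0 of the 10 enzymes. The study applied it with DESeq, so the test behind the threshold differs here. An unadjusted p under 0.05 alone was met by 2.00% of the entries and again by 0 of the 10, also when limma-voom was run on estimated reads. After median-ratio rescaling it was met by 1 enzyme, *Aldh1b1*, beside 363 of 12327 entries. With a block for the replicate number it was met by the same 1 enzyme, beside 357 of 12346 entries. The Benjamini-Hochberg adjusted p from limma was 1 for every enzyme, so the size of each change is given below with its standard error (SE) or 95% interval. The log2 fold changes (Brg1LKO minus WT) ran from −0.11 for *Aldh1a1* to 0.64 for *Aldh1b1*, with 7 positive and 3 negative and a median of 0.08, beside −0.02 over all entries tested. These signs depended on scale where changes were near 0: after median-ratio rescaling *Cyp2e1* and *Aldh2* stood at 0.01 and 0.03. The median absolute change was 0.11 for the enzymes and 0.17 for all entries. The 95% interval lay inside a 2-fold change in either direction for 7 of the 10 enzymes, as it did for 59.6% of all entries. The exceptions were *Adh7*, *Aldh1b1* and *Acss2*. The added 0.1 FPKM can shrink the fold change of a low gene: that of *Acss2* was 0.38 with it and 0.43 with 0.01 FPKM added, while that of *Adh7* was 0.11 and 0.10. Nothing says whether the 2 livers of a group came from separate litters, so no p-value reaches beyond these 4 livers. With 2 livers a group, limma also moderates each gene's spread towards that of all entries tested. Each SE, interval and p-value from limma thus rests partly on this shared spread.

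**Figure D2:**
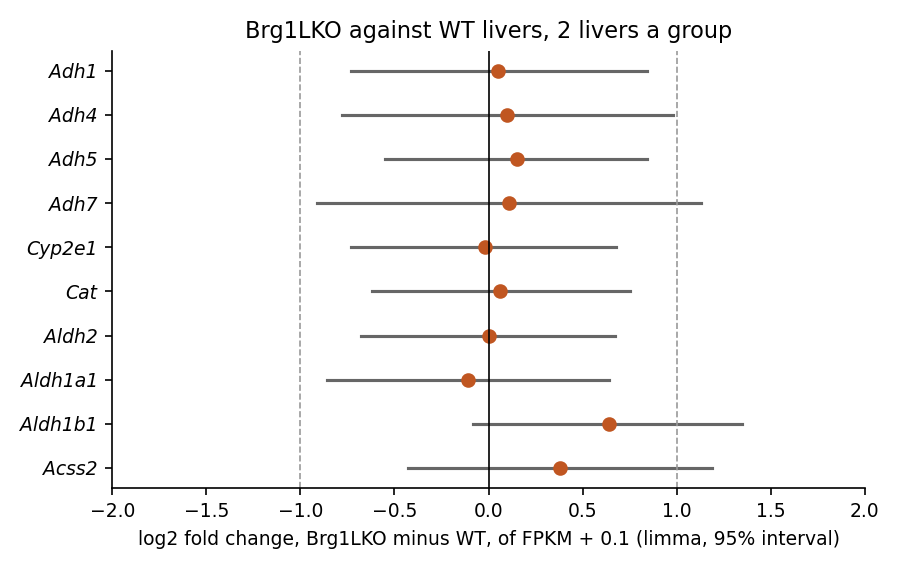
log2 fold change of each enzyme, Brg1LKO minus WT, on the log2(FPKM + 0.1) scale; points are limma estimates, lines 95% intervals, and dashed lines 2-fold changes. Every interval includes 0, and the interval of *Aldh1b1*, from −0.08 to 1.35, reaches least below it.

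The alcohol dehydrogenase genes sit in a cluster on chromosome 3 of GRCm38, all on the plus strand. *Adh7* (chr3:138217760-138233382), *Adh1* (chr3:138277494-138290698), *Adh4* (chr3:138415495-138430892) and *Adh5* (chr3:138443093-138455499) lie in this order over 237.7 kb, and each listed transcript has 9 exons. Between *Adh1* and *Adh4* the table also places *Adh6a*, which was listed at 0 in all 4 livers, *Adh6b* at a mean of 0.0158 FPKM and the pseudogene *Adh6-ps1* at 0.596 FPKM. Neighbouring genes of this cluster thus differed widely in level: *Adh1* stood at 275 FPKM and *Adh7*, whose start lies 59.7 kb before it, at 0.73 FPKM. How reads that match several of these related genes were assigned is not stated, so low values beside an abundant relative are uncertain.

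**Figure D3:**
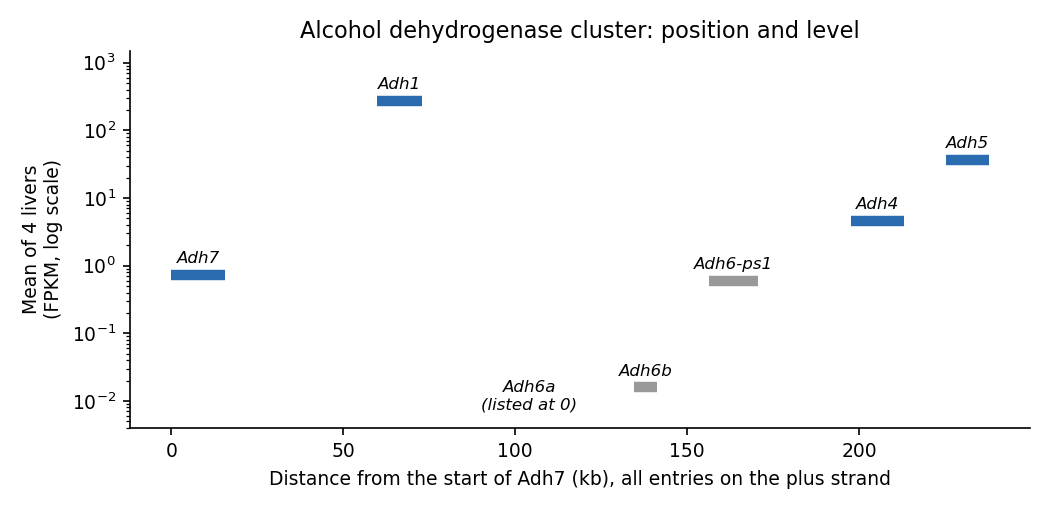
Position (kb from the start of *Adh7*) and mean level of the 4 livers (FPKM, log scale) of the 7 entries of the cluster; blue segments are the 4 enzymes examined and grey segments the other entries. *Adh1* stands at 275 FPKM, *Adh5* at 36.9, *Adh4* at 4.63 and *Adh7* at 0.73, and *Adh6a* is listed at 0.

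To set these levels beside the DNA, the bases just before each listed transcript are shown for the 4 cluster genes and for *Cyp2e1*, from RefSeq promoter sequences (GRCm38.p6, plus strand, 5′ to 3′). Promoter entries were found for 9 of the 10 enzymes, all but *Aldh2*. Capitals mark matches on either strand to 6 short motifs, and no matches overlapped. TATAAA stands for the TATA box. The CCAAT box was searched by those 5 letters. GGGCGG is the core of the GC box that Sp1 binds. The letters AGGTCA are the core element of many nuclear receptors. For the liver factor HNF1 the letters searched were GTTAAT, part of its longer motif. For the C/EBP factors they were TTGCNNAA.
Adh7 (chr3:138217523-138217759): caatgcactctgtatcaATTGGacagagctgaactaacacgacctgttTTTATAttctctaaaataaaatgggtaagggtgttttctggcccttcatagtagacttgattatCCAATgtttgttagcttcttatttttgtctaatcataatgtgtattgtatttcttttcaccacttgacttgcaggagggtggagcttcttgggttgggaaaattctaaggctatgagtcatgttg
Adh1 (chr3:138277335-138277493): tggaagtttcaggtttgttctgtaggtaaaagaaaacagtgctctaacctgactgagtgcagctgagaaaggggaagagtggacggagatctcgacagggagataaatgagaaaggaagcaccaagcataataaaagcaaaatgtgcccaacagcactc
Adh4 (chr3:138415247-138415494): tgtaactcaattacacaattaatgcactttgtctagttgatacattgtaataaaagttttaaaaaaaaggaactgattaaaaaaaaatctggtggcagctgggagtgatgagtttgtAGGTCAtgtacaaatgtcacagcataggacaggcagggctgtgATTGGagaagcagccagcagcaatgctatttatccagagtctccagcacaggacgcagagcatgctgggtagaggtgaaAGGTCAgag
Adh5 (chr3:138442843-138443092): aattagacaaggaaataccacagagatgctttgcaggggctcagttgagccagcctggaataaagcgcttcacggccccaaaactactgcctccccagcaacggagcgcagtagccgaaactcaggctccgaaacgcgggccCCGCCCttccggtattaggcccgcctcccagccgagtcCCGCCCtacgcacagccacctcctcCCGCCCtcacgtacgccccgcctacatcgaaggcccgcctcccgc
Cyp2e1 (chr7:140763569-140763738): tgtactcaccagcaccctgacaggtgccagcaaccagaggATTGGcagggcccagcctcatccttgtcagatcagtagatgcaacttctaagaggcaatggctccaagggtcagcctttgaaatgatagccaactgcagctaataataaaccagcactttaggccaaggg

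The windows differed in composition. The *Adh5* window held 21 CpG dinucleotides in 250 bases and was 63.6% G and C, against a median of 52.4% over the same bases of all 32851 RefSeq promoter entries. It held 3 GC boxes, all on the minus strand, a motif present in 32.7% of all windows of that length. *Adh5* encodes the class III dehydrogenase, which also oxidises the glutathione adduct of formaldehyde and is known to be expressed in most tissues. The *Adh4* window held AGGTCA at 2 places, where 13.9% of all windows of its length held at least 1, and a CCAAT box on the minus strand (33.7% of windows). The *Adh7* window held CCAAT once on each strand (32.8% of windows) and TATAAA on the minus strand (12.0%). The 159 bases before *Adh1* held 0 of the 6 motifs, and the 170 bases before *Cyp2e1* held only CCAAT, on the minus strand, as did 23.3% of windows of that length. Windows shorter than 250 bases were cut at the start of the listed transcript. The bases of the RefSeq entry after that start were not searched, so a motif there would have been missed. The *Cyp2e1* window held 0 CpG, and the *Adh1*, *Adh4* and *Adh7* windows held 2, 1 and 1. These matches describe letters in short windows and were not tested against the levels.

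*Adh1*, the main ethanol-oxidising dehydrogenase of liver, was 185 FPKM in WT replicate 1, 370 FPKM in WT replicate 2, 297 FPKM in Brg1LKO replicate 1 and 247 FPKM in Brg1LKO replicate 2. Both Brg1LKO livers lay between the 2 WT livers, which were 2.01-fold apart. The group means were 277 ± 131 and 272 ± 35.0 FPKM (SD, n = 2 each), and the log2 fold change was 0.05 (SE 0.37, 95% interval −0.73 to 0.84). *Adh1* made up 83.7% to 89.4% of the alcohol dehydrogenase transcript in each liver. Quantile normalization turned its log2 fold change to −0.19.

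*Adh5* was 32.0 and 38.2 FPKM in the WT livers and 40.4 and 37.0 FPKM in the Brg1LKO livers. In FPKM as deposited it varied least of the 10 enzymes over the 4 livers, 1.26-fold from lowest to highest, beside 1.27-fold for *Aldh2*. After median-ratio rescaling this no longer held: *Adh5* ran from 33.4 to 45.7, while *Cyp2e1*, from 499 to 596, varied less. The log2 fold change of *Adh5* was 0.15 (95% interval −0.55 to 0.84). The level of *Adh1* was 5.77 to 9.69 times that of *Adh5* within a liver.

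*Adh4*, which encodes the class II dehydrogenase and is also active on retinol, was 3.54 and 5.08 FPKM in the WT livers and 3.01 and 6.90 FPKM in the Brg1LKO livers. Here the WT livers lay between the Brg1LKO livers, which were 2.29-fold apart. *Adh7*, the class IV dehydrogenase known mainly from stomach, showed the same arrangement at a lower level, with 0.473 and 0.825 FPKM in WT and 0.349 and 1.27 FPKM in Brg1LKO livers. The log2 fold changes were 0.10 (95% interval −0.78 to 0.98) for *Adh4* and 0.11 (95% interval −0.91 to 1.13) for *Adh7*. WT livers between the Brg1LKO livers were found in 2 of the 10 enzymes and in 28.4% of all entries tested. For *Adh4* these values came from 309 to 658 estimated reads, and for *Adh7* from 94 to 317.

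*Adh4* had the largest range over the livers of the members with a mean of at least 1 FPKM, 1.17 on the log2 scale. Among the other 7732 entries at or above that level, its pattern over the 4 livers was most like that of *Slc31a1*, *Cnot3* and *Siah2*. The root mean square differences of the centred log2 levels were 0.0154, 0.0313 and 0.0473, and 61 entries lay within 0.1 of it. *Slc31a1*, a copper transporter, was 5.10 and 7.26 FPKM in WT and 4.34 and 9.64 FPKM in Brg1LKO livers. Likeness over 4 libraries is a description only, since the libraries also differ in scale.

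*Cyp2e1*, on chromosome 7 (chr7:140763739-140774981, plus strand, 9 exons), was 455 and 673 FPKM in the WT livers and 478 and 620 FPKM in the Brg1LKO livers. Both Brg1LKO livers again lay between the WT livers. The means were 564 ± 155 and 549 ± 100 FPKM (SD, n = 2 each), with a log2 fold change of −0.02 (SE 0.33, 95% interval −0.73 to 0.68). The interval spans 0.603 to 1.60 times the WT level. Within a liver, *Cyp2e1* was 1.61 to 2.51 times as high as *Adh1*. *Cyp2e1* is known from hepatocytes around the central vein. Of 10 other pericentral genes 0 had a limma p under 0.05, with 2 positive and 8 negative log2 fold changes and sums of 295 and 519 FPKM in WT and 399 and 314 FPKM in Brg1LKO livers. The periportal list had 8 positive and 2 negative log2 fold changes, also with 0 passing. The share of each sign over all entries tested was not counted.

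*Cat*, which encodes catalase, lies on chromosome 2 (chr2:103453849-103485160, minus strand, 13 exons) and was 226 and 309 FPKM in the WT livers and 265 and 288 FPKM in the Brg1LKO livers. Its log2 fold change was 0.06 (SE 0.32, 95% interval −0.62 to 0.75), and quantile normalization turned it to −0.14. The Brg1LKO livers lay between the WT livers.

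*Aldh2*, the mitochondrial enzyme that clears most acetaldehyde, lies on chromosome 5 (chr5:121566027-121593824, minus strand, 13 exons). It was 238 and 304 FPKM in the WT livers and 267 and 270 FPKM in the Brg1LKO livers, with means of 271 ± 46.1 and 269 ± 2.08 FPKM (SD, n = 2 each). The log2 fold change was 0.00 (SE 0.31, 95% interval −0.68 to 0.67), a span of 0.626 to 1.60 times the WT level. *Aldh2* supplied 73.2% to 78.5% of the summed aldehyde dehydrogenase transcript of the 3 members. Its level was 0.941 to 1.06 times that of *Cat* within each liver.

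*Aldh1a1*, the cytosolic retinaldehyde and acetaldehyde dehydrogenase on chromosome 19 (chr19:20601961-20643462, plus strand, 13 exons), was 62.1 and 107 FPKM in the WT livers and 77.4 and 74.1 FPKM in the Brg1LKO livers. Its log2 fold change was −0.11 (SE 0.35, 95% interval −0.86 to 0.64), and both Brg1LKO livers lay between the WT livers. *Aldh1a7* is a close relative of similar sequence at 21.4 to 31.2 FPKM, so the division of reads between the 2 genes is uncertain. *Aldh1a1* made up 20.5% to 25.9% of the aldehyde dehydrogenase transcript.

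*Aldh1b1*, a mitochondrial aldehyde dehydrogenase with its coding sequence in 1 exon, lies on chromosome 4 (chr4:45799022-45804604, plus strand, 2 exons). It was 3.28 and 3.57 FPKM in the WT livers and 5.92 and 4.87 FPKM in the Brg1LKO livers, corresponding to 610, 655, 1063 and 813 estimated reads. Both Brg1LKO livers were above both WT livers, which held for *Aldh1b1* alone of the 10 enzymes and for 10.7% of all entries tested. The means were 3.42 ± 0.203 and 5.40 ± 0.738 FPKM (SD, n = 2 each), so the Brg1LKO mean was 158% of the WT mean. The log2 fold change of 0.64 (SE 0.33, 95% interval −0.08 to 1.35) did not pass the unadjusted threshold of 0.05 in limma (adjusted p = 1). After median-ratio rescaling of the libraries it was 0.67 and passed the unadjusted threshold, with an adjusted p of 1. Under that setting 363 of 12327 entries passed the unadjusted threshold. With 1 in 10 enzymes showing it, the separation was no more frequent than in the table as a whole. *Aldh1b1* was 0.861% and 1.08% of the aldehyde dehydrogenase transcript in WT livers and 1.69% and 1.39% in Brg1LKO livers.

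*Acss2* is listed under a transcript on chromosome 2 (chr2:155518069-155552387, plus strand, 3 exons) that GENCODE classes as a retained intron with no coding sequence. The identifier was the longest transcript of the gene for 8 of the 10 enzymes, *Acss2* included, and for 82.9% of the matched identifiers. Whether the value counts this transcript or the whole gene is not stated, so the level of *Acss2* mRNA itself may not be what was measured. The listed value was 0.503 and 0.961 FPKM in WT and 1.07 and 0.828 FPKM in Brg1LKO livers, and the groups overlapped. The log2 fold change was 0.38 (SE 0.38, 95% interval −0.43 to 1.19).

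The 2 WT livers differed from each other in the same direction in every enzyme. WT replicate 2 was above WT replicate 1 in 10 of 10 enzymes, from 1.09-fold for *Aldh1b1* to 2.01-fold for *Adh1*, and in 80.3% of all entries tested. In *Adh1*, *Cyp2e1*, *Cat*, *Aldh2* and *Aldh1a1*, the 5 enzymes with a mean of at least 50 FPKM, WT replicate 1 was the lowest and WT replicate 2 the highest of the 4 livers. That arrangement held for 14.5% of all entries tested and for 31.0% of the 535 entries at or above 50 FPKM, and Brg1LKO livers between the WT livers in either order for 15.7%. Brg1LKO replicate 2 was above replicate 1 in 5 of the 10 enzymes and in 73.2% of entries. The median-ratio factors of the libraries were 0.912 and 1.13 in WT and 0.884 and 1.11 in Brg1LKO livers. After division by these factors, WT replicate 2 was still above WT replicate 1 in 8 of the 10 enzymes, beside 48.2% of entries, with *Adh1* 1.62-fold and *Aldh1a1* 1.40-fold higher. *Cyp2e1* was then the only enzyme with the WT livers as lowest and highest in that order. The scale of the libraries moved with this pattern, and its part in it was not tested.

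**Figure D4:**
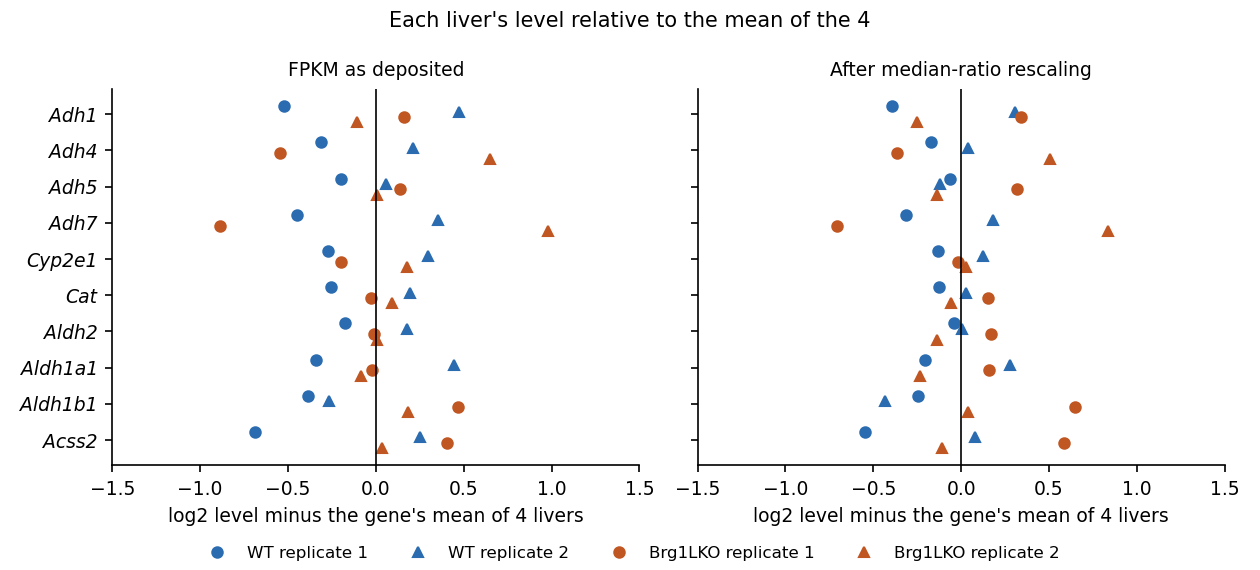
Level of each enzyme in each liver on the log2 scale, minus the gene's own mean of the 4 livers; left, FPKM as deposited, right, after median-ratio rescaling; blue WT, orange Brg1LKO, circles replicate 1 and triangles replicate 2. In the left panel WT replicate 2 is to the right of WT replicate 1 for all 10 enzymes, and in the right panel for 8. *Aldh1b1* has both Brg1LKO points to the right of both WT points in each panel.

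The surrounding pathways were described with 7 further lists holding 78 genes, of which 68 passed the filter. Of these 68 genes 0 had an unadjusted limma p under 0.05 in either direction, beside 2.00% of all entries, and 0 met the 2-fold threshold, beside 0.980%. For the former limma-voom gave 0 as well. Median-ratio rescaling gave 2, beside 363 of 12327 entries, and quantile normalization 3, beside 375 of 12346. A block for the replicate number gave 1, beside 357 of 12346. The log2 fold changes were positive in 41 and negative in 27, with a median of 0.08. Both Brg1LKO livers were above both WT livers in 10 of the 68, beside 10.7% of all entries.

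Among 6 tested members of the other alcohol dehydrogenases and reductases, *Akr1a1*, an aldehyde reductase, was highest with 59.8 and 94.6 FPKM in WT and 75.6 and 72.3 FPKM in Brg1LKO livers. The largest log2 fold change at 1 FPKM or more was 0.29 for *Adhfe1* (SE 0.37), and *Dhrs4* had 13.3 and 19.5 FPKM in WT and 13.3 and 15.3 FPKM in Brg1LKO livers. Of 13 tested other aldehyde dehydrogenases, *Aldh7a1*, which acts in lysine breakdown, was highest at 73.5 and 93.0 FPKM in WT and 87.0 and 89.6 FPKM in Brg1LKO livers. *Aldh1l1*, the folate-dependent formyl dehydrogenase, was 48.0 and 41.2 FPKM in WT and 75.2 and 47.7 FPKM in Brg1LKO livers (log2 fold change 0.43, 95% interval −0.31 to 1.17). *Aldh4a1*, of proline breakdown, had a log2 fold change of 0.37 (95% interval −0.37 to 1.10). *Aldh3a1*, a corneal and inducible form, was listed at 0 in all 4 livers.

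The 7 genes of the microsomal list included *Por*, the reductase that passes electrons to CYP2E1. *Por* was 53.5 and 69.8 FPKM in WT and 88.2 and 28.4 FPKM in Brg1LKO livers, so the Brg1LKO replicates lay on either side of the WT livers. *Cyp3a11*, another ethanol-oxidising P450, was 466 and 640 FPKM in WT and 401 and 395 FPKM in Brg1LKO livers. Its Brg1LKO livers were both below the WT livers, but its log2 fold change of −0.46 (95% interval −1.13 to 0.22) did not pass. *Cyp3a25* was 179 and 300 FPKM in WT and 230 and 222 FPKM in Brg1LKO livers.

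In the list of peroxisomal hydrogen peroxide producers and import factors, *Hao1*, the glycolate oxidase, was 43.0 and 32.7 FPKM in WT and 21.1 and 30.2 FPKM in Brg1LKO livers (log2 fold change −0.57, 95% interval −1.31 to 0.17). *Uox*, urate oxidase, had 49.1 and 70.4 FPKM in WT and 64.8 and 62.0 FPKM in Brg1LKO livers. For acetate and acetyl-CoA, *Acly*, which makes cytosolic acetyl-CoA from citrate, was 12.6 and 14.6 FPKM in WT and 17.0 and 23.4 FPKM in Brg1LKO livers (log2 fold change 0.55, 95% interval −0.17 to 1.28). *Acaca*, which turns acetyl-CoA to malonyl-CoA, had a log2 fold change of 0.51 (95% interval −0.25 to 1.27). The thiolases *Acat1* and *Acat2* were the most abundant of that list, with log2 fold changes of −0.34 (95% interval −1.08 to 0.40) and 0.18 (95% interval −0.52 to 0.88).

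Of 12 genes listed for the reoxidation of NADH, mostly of its shuttles, 10 had a positive log2 fold change and 0 passed. Their median was 0.18, beside −0.02 over all entries tested, and the share of positive values over all entries was not counted. *Got1*, the cytosolic aspartate aminotransferase of the malate-aspartate shuttle, was 71.0 and 76.6 FPKM in WT and 202 and 61.6 FPKM in Brg1LKO livers, so its log2 fold change of 0.60 (95% interval −0.38 to 1.57) rested on Brg1LKO replicate 1. *Ldha*, lactate dehydrogenase A, was 220 and 127 FPKM in WT and 180 and 168 FPKM in Brg1LKO livers. *Gpd2*, of the glycerol phosphate shuttle, was 1.20 and 1.35 FPKM in WT and 2.31 and 1.20 FPKM in Brg1LKO livers. In the retinoid list, whose oxidation steps use related dehydrogenases, 8 of 11 tested genes had a negative log2 fold change (median −0.09), again with 0 passing. *Rbp4*, the plasma retinol carrier, was 1089 and 1647 FPKM in WT and 1119 and 1406 FPKM in Brg1LKO livers. *Rdh7*, a retinol dehydrogenase, was 94.8 and 150 FPKM in WT and 98.5 and 137 FPKM in Brg1LKO livers. *Cyp26b1*, which breaks down retinoic acid, had a log2 fold change of −0.63 with a wide interval from −1.99 to 0.73.

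**Figure D5:**
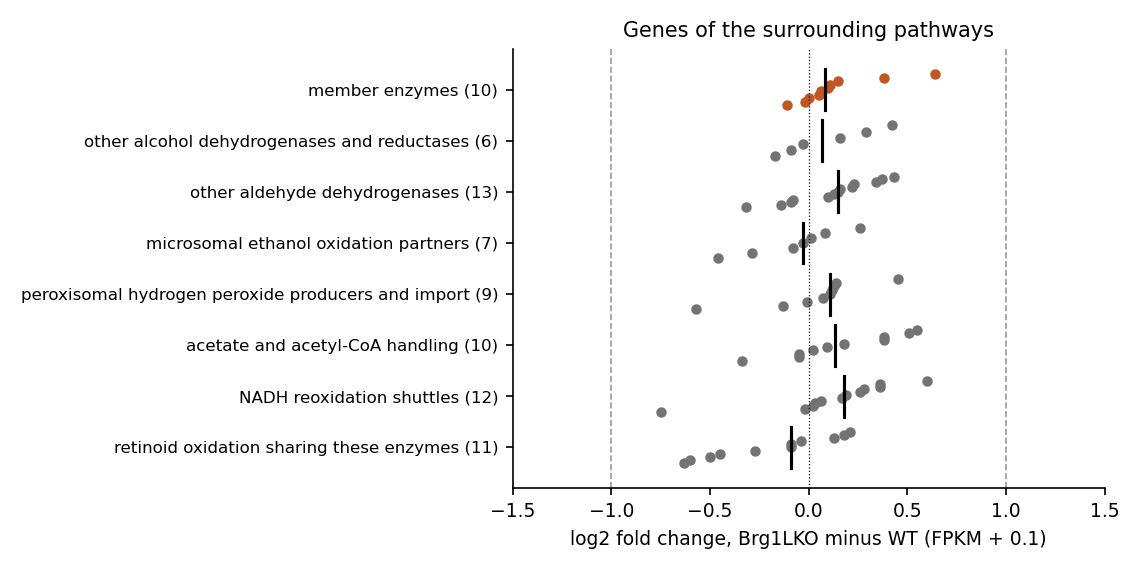
log2 fold change (Brg1LKO minus WT, of FPKM + 0.1) of every tested gene in the enzyme group (orange) and in the 7 surrounding lists (grey), with the number of genes tested in brackets; black bars are medians and dashed lines 2-fold changes. All points lie inside the dashed lines, and the medians run from −0.09 to 0.18.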

How the data were processed

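Whole-liver RNA-seq of 2 WT and 2 Brg1LKO mice was used, grouped by the sample labels. The authors deposited FPKM, 1 value per entry and liver, with no normalization between libraries stated. Their methods give Trimmomatic, HISAT2, GRCm38 and Cufflinks, with stranded TruSeq libraries on a HiSeq instrument, while the submitters' processing notes list HISAT2 2.0.4 and StringTie 2.1.4 and the labels a BGIseq protocol; this was not settled. Lengths and coordinates came from GENCODE M21 (GRCm38). Reads were estimated from FPKM, length and recovered depth (88.4% to 89.5% of low values lay within 0.1 of a whole read) and cover counting error only.

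For entries with a mean of at least 0.1 FPKM, limma 3.58.1 (R 4.3.3; eBayes with trend) was run on log2(FPKM + 0.1), with Benjamini-Hochberg adjustment over 12346 entries. Route sums were compared by exact permutation tests (SciPy 1.17.1). The fit was tested on simulated data. Alternatives were pseudocounts of 1 and 0.01, no filter, a filter of 1 FPKM, median-ratio and quantile scaling, no trend, limma-voom on estimated reads, a replicate block, and each liver left out. The labels do not say that a shared replicate number marks a shared litter or batch, and the livers were not treated as pairs. Across entries, the difference between the WT replicates correlated with that between the Brg1LKO replicates at 0.03. This does not see the scale that same-numbered libraries shared (median-ratio factors 0.912 and 0.884 for replicate 1, 1.13 and 1.11 for replicate 2).

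The members and lists were chosen with earlier results of these data known. All members were named. Of other lists, genes were named with an unadjusted p under 0.05, with the 2 highest means, or with the 2 largest log2 fold changes among genes of at least 1 FPKM, besides the 3 entries most like the widest-ranging member. *Adh6a*, *Adh6b*, *Adh6-ps1*, *Aldh1a7*, *Aldh3a1*, *Lcn2*, *Ly6g*, *Camp* and *Ngp* are not covered by it and were picked with their values known. Some genes that the rule names are not reported here.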

Additional observations from a re-analysis of the deposited data

How the results depend on the processing

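Of the 10 enzymes, 0 had an adjusted limma p under 0.05 under any alternative, the lowest being 0.257. The number with an unadjusted p under 0.05 was 0, and 1 (*Aldh1b1*) after median-ratio rescaling and with a replicate block. Under these settings 363 of 12327 and 357 of 12346 entries passed. Without Brg1LKO replicate 1 the log2 fold change of *Adh7* was 0.91. The labels do not tie the replicate numbers to pairs, though same-numbered libraries shared a scale (replicate 2 above replicate 1 in 80.3% of entries in WT and 73.2% in Brg1LKO livers). With the replicate block the number of entries with an unadjusted p under 0.05 went from 247 to 357. For list genes it went from 0 to 1. Over all entries it was 363 of 12327 after median-ratio rescaling and 375 of 12346 with quantile normalization. It also moved over all entries with each liver left out. A group then held 1 liver, so counts from those fits do not set the lists apart from the table. Over the 68 list genes that number was 2 after median-ratio rescaling, 3 with quantile normalization, and 1 to 7 with each liver left out. The entries past 2-fold and p under 0.05 went from 121 to 18 with a pseudocount of 1, 80 with no filter and 68 with a filter of 1 FPKM, and from 78 to 552 with livers left out. Signs near 0 turned: with median-ratio rescaling for *Cyp2e1* (0.01), *Aldh2* (0.03) and the sums of the alcohol dehydrogenases (0.09), *Cyp2e1* (0.01) and the aldehyde dehydrogenases (0.02); with quantile normalization for *Adh1* (−0.19), *Cat* (−0.14) and its route (−0.15); with limma-voom for *Aldh2* (0.00). With each liver left out, log2 values ran from −0.45 to 0.55 for *Adh1*, −0.48 to 0.69 for *Adh4*, −0.70 to 0.91 for *Adh7*, −0.31 to 0.26 for *Cyp2e1*, −0.16 to 0.29 for *Cat*, −0.17 to 0.17 for *Aldh2*, −0.50 to 0.28 for *Aldh1a1*, −0.02 to 0.79 for *Acss2*, 0.02 to 0.27 for *Adh5* and 0.50 to 0.77 for *Aldh1b1*. The route sums ran from −0.39 to 0.52 for the alcohol dehydrogenases, −0.30 to 0.27 for the microsomal, −0.16 to 0.29 for the peroxisomal, −0.24 to 0.20 for the aldehyde dehydrogenase and −0.01 to 0.92 for the acetate route. The cause of these turns was not tested. A lone liver in a group was taken to vary like the other group. *Adh7* and *Acss2*, at 94 to 317 and 147 to 303 estimated reads, were limited most by depth.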
